A study of Mus musculus with 16 samples.

Results

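NF-kappaB is followed here through 10 genes in adipose tissue macrophages (ATMs) of mice on a high-fat diet (HFD), the 5 subunits of the factor (Nfkb1, Nfkb2, Rel, Rela and Relb) and 5 inhibitors and feedback genes that it is known to induce (Nfkbia, Nfkbiz, Bcl3, Tnfaip3 and Zfp36). They were chosen by gene name, not by their values, from the 37310 genes of the count table. All 10 passed the filter on low counts, as did 11560 genes in all. RNA of F4/80+ cells, F4/80 being a surface protein of mouse macrophages, sorted from epididymal fat pads, was sequenced in 16 libraries, 4 for each of 4 groups. WT and IRF5-KO mice were fed HFD for 4 weeks (short term, ST-HFD) or for 12 weeks (long term, LT-HFD). IRF5-KO mice carry floxed alleles of Irf5, an inflammatory transcription factor, and LysM-Cre, a recombinase inserted at the Lyz2 locus that is active in myeloid cells in general and not in ATMs alone. WT mice were their littermates. All mice were male, young adults at the start of feeding, and every group was on HFD, so no lean control enters the values below.

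NF-kappaB acts as pairs of subunits. RelA, RelB and c-Rel carry activation domains, whereas the Nfkb1 and Nfkb2 proteins are precursors that are cut to p50 and p52. In resting cells IkappaB proteins hold the pairs in the cytoplasm. Signals from Toll-like and cytokine receptors activate the IkappaB kinase, IkappaB is degraded, and the freed pairs induce inflammatory genes together with their own inhibitors. Those inhibitors close the loop at different steps: new IkappaBalpha (Nfkbia) removes NF-kappaB from DNA, A20 (Tnfaip3) edits ubiquitin chains upstream of the kinase, and tristetraprolin (Zfp36) destabilises cytokine mRNAs. In macrophages this loop is known for fast, short-lived pulses of RNA, so that the level of a feedback gene reads recent signalling while the subunit RNAs move more slowly.

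Promoter sequences of the genes were searched for the kappaB consensus (the kappaB motif, on both strands). RefSeq windows of GRCm38.p6, from 250 bases before to 50 bases after a gene start, were held for 7 of the 10 genes. A match was present for 5 of them, Nfkb2, Rel, Nfkbia, Tnfaip3 and Bcl3, against 5.14% of 27025 genes and 4.51% of 32851 windows. No match to these letters was in the windows of Rela and Zfp36. Nfkb1, Relb and Nfkbiz have no window. The 250 bases before the RefSeq start are shown for the 4 genes with a match there, the inhibitors Nfkbia and Tnfaip3 and the subunits Rel and Nfkb2, with matches in capitals, 5′ to 3′ on the strand of the gene. They lie at chr12:55492648-55492897 (minus strand) for Nfkbia, chr10:19015411-19015660 (minus) for Tnfaip3, chr11:23770970-23771219 (minus) for Rel and chr19:46304487-46304736 (plus) for Nfkb2. For Tnfaip3 and Nfkb2 these bases overlap the GENCODE gene coordinates given below, in which the gene starts further upstream.
Nfkbia: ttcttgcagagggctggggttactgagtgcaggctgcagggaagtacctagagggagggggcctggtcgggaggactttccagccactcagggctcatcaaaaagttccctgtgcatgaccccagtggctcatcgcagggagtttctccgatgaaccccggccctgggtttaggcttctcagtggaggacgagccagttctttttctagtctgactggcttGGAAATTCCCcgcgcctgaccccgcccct
Tnfaip3: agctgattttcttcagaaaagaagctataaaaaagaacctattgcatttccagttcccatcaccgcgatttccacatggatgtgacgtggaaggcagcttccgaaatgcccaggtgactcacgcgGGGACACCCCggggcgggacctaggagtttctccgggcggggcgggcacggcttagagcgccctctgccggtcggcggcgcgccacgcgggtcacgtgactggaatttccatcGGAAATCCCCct
Rel: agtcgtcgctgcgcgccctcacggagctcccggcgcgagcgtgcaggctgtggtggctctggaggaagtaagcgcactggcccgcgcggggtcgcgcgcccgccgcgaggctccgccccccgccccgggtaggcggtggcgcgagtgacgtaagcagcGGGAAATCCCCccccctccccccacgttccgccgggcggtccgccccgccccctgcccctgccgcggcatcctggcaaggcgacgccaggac
Nfkb2: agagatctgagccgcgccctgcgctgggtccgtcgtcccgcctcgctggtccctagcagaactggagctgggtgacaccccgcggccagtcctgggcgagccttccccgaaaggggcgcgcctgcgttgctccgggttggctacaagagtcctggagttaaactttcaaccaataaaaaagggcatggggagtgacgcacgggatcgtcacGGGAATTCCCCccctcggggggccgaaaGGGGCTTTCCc
Nfkbia held 1 match in these bases and Tnfaip3 held 2 that do not touch. In Rel the capitals cover 3 overlapping matches on both strands, and in Nfkb2 the first run of capitals covers 3 and the second 1. The match of Bcl3 begins just after its start and is not shown. A match is a stretch of letters and not a measured binding site.

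Libraries held between 3279332 and 4958131 counts, with every LT-HFD library (at most 3792898) below every ST-HFD library (at least 3860469). All 11 macrophage markers were tested, with group means from 57.0 CPM (Fcgr1) to 2455 CPM (Mrc1), both in IRF5-KO ST-HFD. Adgre1, which encodes F4/80, averaged 617 and 709.7 CPM in WT (ST-HFD, then LT-HFD) and 609 and 839.9 CPM in IRF5-KO. Its mean was higher on LT-HFD, whereas 9 of 11 macrophage markers were lower there in each genotype. CPM are counts scaled to a common library total. The 5 neutrophil markers summed to at most 2.44 CPM and the 6 T cell markers to at most 33.4 CPM in any library. The 8 fibroblast and preadipocyte markers summed to up to 9246 CPM, in WT LT-HFD replicate 4, where the macrophage markers summed to 9109 CPM. Libraries labelled IRF5-KO did not hold less Irf5 (on ST-HFD 250.4 to 273 CPM, against 203 to 252 CPM in WT). Counts summed over a gene cannot show which exons are gone. In contrast Lyz2, the locus of the Cre, stood at 1395 to 1973 CPM there, against 3095 to 3783 CPM in WT. Genotypes are therefore given as labelled. WT ST-HFD replicate 3 and IRF5-KO ST-HFD replicate 4 stood apart for several of the 10 genes, and the results of the 10 genes on ST-HFD, and the counts of the other lists between durations, are given with and without these 2 libraries. That alternative was chosen after seeing the data.

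Levels were compared between genes as CPM per kilobase of exons, over all 16 libraries. Nfkbia, Zfp36, Tnfaip3 and Nfkbiz were far more abundant than any subunit, while Bcl3 was below Rela and Nfkb2. Nfkbia led with 456.5 ± 107 CPM per kilobase (SD, n = 16), followed by Zfp36 with 319 ± 114, and Nfkbia was above Zfp36 in 15 of 16 libraries. Tnfaip3 (116 ± 43.5) and Nfkbiz (108 ± 36.7) could not be ordered, Tnfaip3 being the higher in 8 of 16 libraries. Rela, the main activating subunit, was the most abundant subunit with 26.0 ± 5.00 CPM per kilobase and was above Nfkb2 (20.95 ± 3.78) in 15 of 16 libraries. The lowest levels belonged to Bcl3 (10.8), Rel (9.95), Nfkb1 (8.83) and Relb (8.56), whose order changed from library to library. These levels use the union of annotated exons, which for Zfp36 is as long as the whole gene (3470 bases) and for Nfkb1 is 12061 bases, so the per-kilobase level of a gene with a long union is a low estimate.

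**Figure D1:**
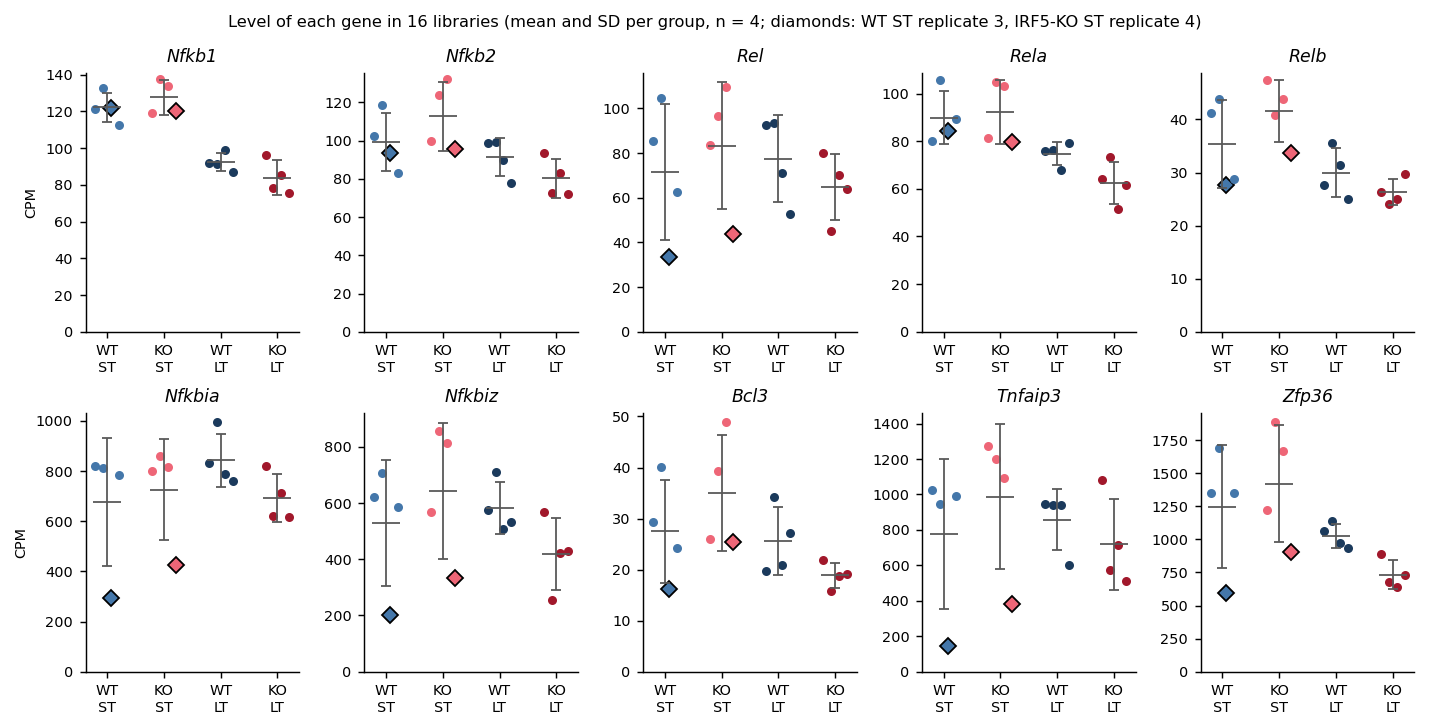
Level of each gene in each of the 16 libraries in CPM (y axes start at 0), by group, with the mean and SD of 4 libraries. Diamonds are WT ST-HFD replicate 3 and IRF5-KO ST-HFD replicate 4, which are the lowest ST-HFD points for Nfkbia, Nfkbiz, Rel, Tnfaip3 and Zfp36 and lie among the other ST-HFD points for Nfkb1.

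The 10 genes differed widely in how much they varied between libraries of the same group. Tnfaip3, on chromosome 10 (19000910 to 19015657, GRCm38), had a within-group SD of 0.85 on the log2 CPM scale, at the 97.5th percentile of 11560 genes. Nfkb1, the p105/p50 subunit on chromosome 3 (135584655 to 135691547), had an SD of 0.11, at the 3.46th percentile. Rela and Nfkb2 were nearly as even (0.18 and 0.20), Relb and Bcl3 had SDs of 0.24 and 0.41, and Zfp36, Nfkbia, Rel and Nfkbiz ranged from 0.43 to 0.58, where the median gene had 0.28. Without the 2 libraries the SD of Tnfaip3 was 0.32 and that of Nfkbia fell from 0.45 to 0.15, whereas that of Bcl3 went from 0.41 to 0.34.

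On ST-HFD the spread of the feedback genes other than Bcl3 lay largely in those libraries. Nfkbia, on chromosome 12 (55489410 to 55492647), stood at 819.7, 811, 295.5 and 783 CPM in WT ST-HFD replicates 1 to 4, and at 802, 860.2, 816 and 425 CPM in IRF5-KO ST-HFD. Its other 6 ST-HFD libraries averaged 815 ± 25.7 CPM (SD), and WT replicate 3 was at 36.2% and IRF5-KO replicate 4 at 52.2% of that mean. Tnfaip3, which encodes A20, showed the deepest drop. It stood at 1025, 946, 144 and 989 CPM in WT and at 1272, 1199, 1094 and 384 CPM in IRF5-KO, which put WT replicate 3 at 13.3% and IRF5-KO replicate 4 at 35.3% of the other 6. Nfkbiz, which encodes the nuclear IkappaBzeta (chromosome 16, 55811375 to 55838899), stood at 620.1, 706, 203 and 587 CPM in WT and at 567, 858, 814 and 334 CPM in IRF5-KO. The same 2 libraries were again below all others. For Rel (c-Rel, chromosome 11, 23736847 to 23770970) they held 33.4 and 43.8 CPM where the other 6 began at 62.8, and for Zfp36 (chromosome 7, 28376784 to 28380253) they held 595 and 905 CPM where the others began at 1225. Nfkb1, Rela and Nfkb2 stayed closer to the other libraries, and Relb followed in part. In WT replicate 3 and IRF5-KO replicate 4, Nfkb1 was at 96.5% and 95.2% of the mean of the other 6, Rela at 89.6% and 84.8%, Nfkb2 at 84.9% and 86.8%, and Relb at 67.2% and 82.2%. Bcl3, an IkappaB protein that works in the nucleus with p50 and p52, was at 46.7% and 73.1%.

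In all, the 2 libraries were the lowest of 8 for 5 of the 10 genes, against 4.64% of 10925 genes. They were singled out for their low values in these genes, so this count describes that choice and supports nothing further. The same held for 18 of 20 immediate early genes (such as Fos and Egr1, which switch on within minutes of a stimulus), for 17 of 26 inflammatory genes known to be induced by NF-kappaB and for 5 of 15 other feedback genes. It held for 3 of 17 IkappaB proteins and kinases, 3 of 21 receptor adaptors, 0 of 8 heat shock genes and 0 of 11 macrophage markers. Among tested markers of other cells it held for 1 of 4 endothelial and 1 of 3 dendritic ones. Summed over 20 immediate early genes, WT replicate 3 and IRF5-KO replicate 4 held 6119 and 7345 CPM, where the other 6 ST-HFD libraries held 10720 CPM or more. Their total counts (3860469 and 3910945) were the lowest on ST-HFD, though the next library held 3977065, and their shares of mitochondrial counts lay within the range of the other 6. The part of depth in the low values was not tested.

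**Figure D2:**
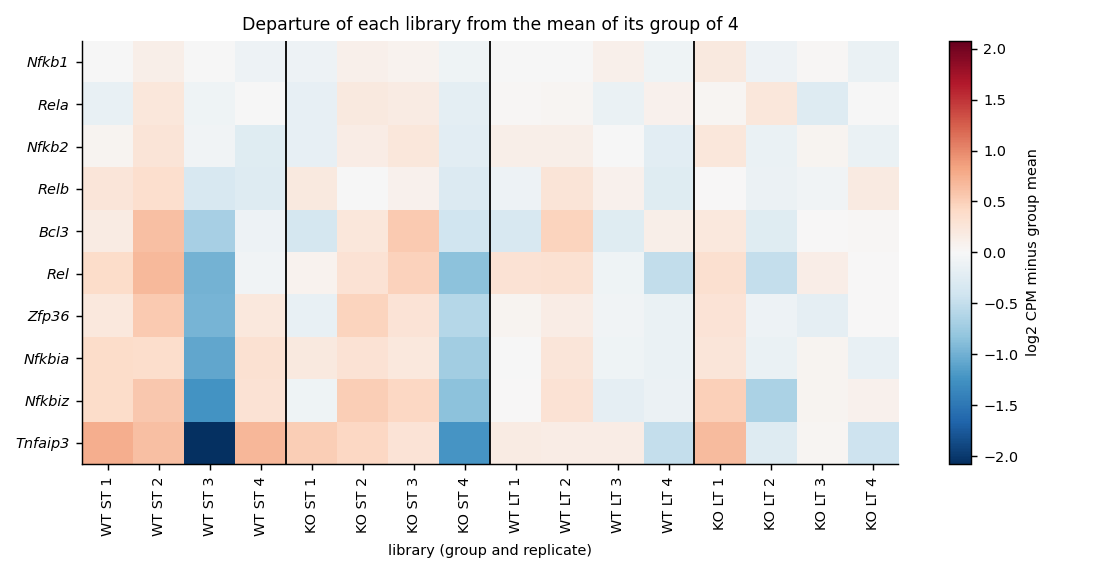
Departure of each library (columns) from the mean of its group of 4 on the log2 CPM scale, for the 10 genes (rows). WT ST 3 and KO ST 4 are the darkest columns for Tnfaip3, Nfkbiz, Nfkbia, Zfp36 and Rel, and are pale for Nfkb1, Rela and Nfkb2.

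**Figure D3:**
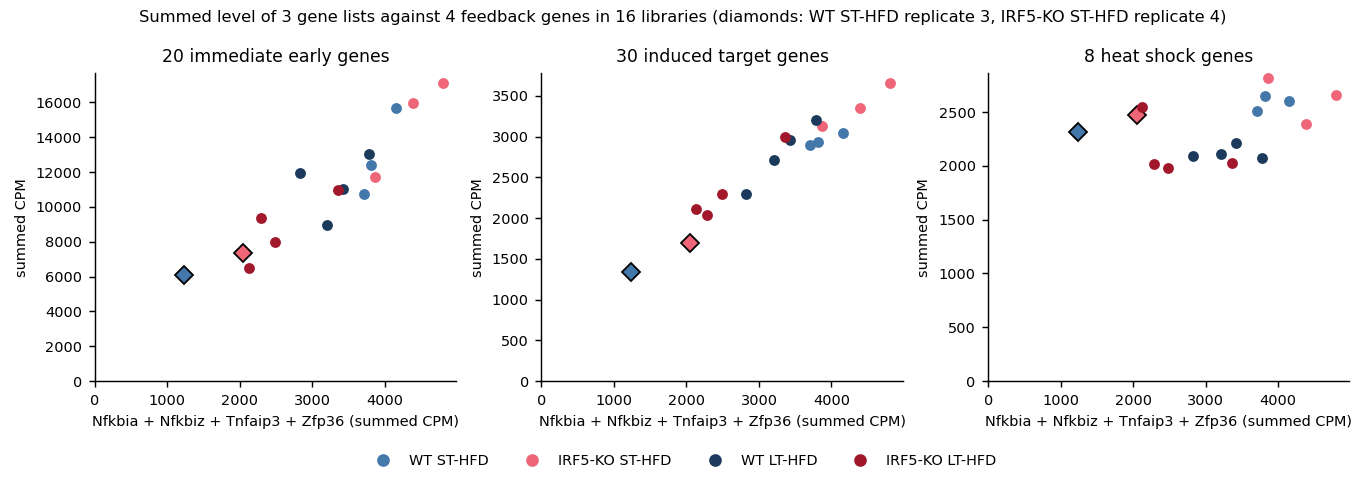
Summed CPM of 3 gene lists (y axes, from 0) against the summed CPM of Nfkbia, Nfkbiz, Tnfaip3 and Zfp36 (x axes, from 0) in 16 libraries, coloured by group. The diamonds, WT ST-HFD replicate 3 (1237 CPM on the x axis) and IRF5-KO ST-HFD replicate 4 (2048 CPM), are low for immediate early and induced genes and stay with the other libraries for heat shock genes.

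Across libraries most of the genes moved together. After the group means were removed, Pearson's r over the 16 libraries was above 0 for 45 of 45 pairs, with a median of 0.61 (Spearman's rho 0.63). Without the 2 libraries it was above 0 for 40 of 45 pairs, with a median of 0.55. Rela moved less with the others, with r from 0.14 (Relb) to 0.56 (Zfp36) over 16 libraries. Without the 2 libraries its r ran from -0.26 (Tnfaip3) to 0.64 (Zfp36). For the 10 pairs among Nfkbia, Nfkbiz, Tnfaip3, Zfp36 and Rel, a subset chosen after its values were seen, the median r was 0.90 with all libraries and 0.66 without the 2, so a part of the shared movement remained in the other 14 libraries. All points of such a correlation share the depth and handling of their library.

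The genes most like the 10, by the correlation with their mean centred and scaled log2 CPM over 16 libraries, were Wsb1 (r = 0.98, rho = 0.94), Nfkbid (r = 0.96, rho = 0.92), Kdm6b (r = 0.95, rho = 0.89), Icam1 (r = 0.95, rho = 0.89) and Ppp1r15a (r = 0.94, rho = 0.94). Nfkbid encodes another nuclear IkappaB protein, Icam1 an adhesion molecule known to be induced by NF-kappaB, Kdm6b a histone demethylase and Ppp1r15a a phosphatase subunit of the stress response. Without the 2 libraries their r values were 0.95, 0.93, 0.86, 0.92 and 0.87. Of the lists, the immediate early genes had a median r of 0.87 and the induced targets 0.80, against 0.47 for the 15 further feedback genes, 0.29 for 21 receptor adaptors, 0.12 for 17 IkappaB proteins and kinases, 0.06 for heat shock genes and 0.01 for all 11550 other genes.

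The first comparison asks what changes between short-term and long-term HFD. Nfkb1 was lower after 12 weeks in both genotypes, and Rela, Relb, Nfkb2, Zfp36 and Bcl3 were lower in IRF5-KO, whereas Rel passed the test in neither. More of the 10 genes were called in IRF5-KO than in WT, although the difference between genotypes did not pass its own test. In WT 1 of the 10 genes had an adjusted p under 0.05 (edgeR's quasi-likelihood test over 11560 genes), with 25.3% of all genes called and 13.2% called lower. In IRF5-KO 6 of the 10 were called, all lower, with 32.8% of all genes called and 17.2% called lower. With both genotypes averaged the same 6 were called, all lower (Nfkb1, Nfkb2, Rela, Relb, Bcl3 and Zfp36), against 43.6% of genes called and 21.6% called lower. The averaged call of Bcl3 was lost in 9 of the 16 fits that left out 1 library (adjusted p up to 0.0895 in edgeR), and those of Bcl3 and Nfkb2 were lost with upper-quartile factors. The split of all called genes moved with the scaling. Lower genes made up 52.2% of calls in WT, 52.4% in IRF5-KO and 49.6% averaged, and 40.5%, 38.7% and 37.5% with upper-quartile factors, or 65%, 58.2% and 58.5% with library totals alone. Of the 10 genes, the upper-quartile factors left 1, 6 and 4 called, all lower.

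Nfkb1 fell in both genotypes. It stood at 121, 133, 122 and 113 CPM in WT ST-HFD replicates 1 to 4 and at 92.0, 91.5, 99.0 and 87.0 CPM in WT LT-HFD. In IRF5-KO it stood at 119, 138, 134 and 120.1 CPM on ST-HFD and at 96.5, 78.1, 85.4 and 75.7 CPM on LT-HFD. All 8 LT-HFD libraries lay below all 8 ST-HFD libraries, which held for 2 of the 10 genes, the other being Rela, against 8.97% of genes. The log2 fold change was -0.40 in WT (SE 0.10, adjusted p = 0.00494 in edgeR) and -0.60 in IRF5-KO (SE 0.10, adjusted p = 0.000141), and without the 2 libraries it was -0.40 and -0.63.

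Rela, on chromosome 19 (5637483 to 5648130), stood at 80.2, 106, 84.3 and 89.2 CPM in WT ST-HFD and at 75.7, 76.5, 67.9 and 79.1 CPM in WT LT-HFD. In IRF5-KO it stood at 81.4, 105, 103 and 79.8 CPM on ST-HFD and at 64.1, 73.2, 51.7 and 61.5 CPM on LT-HFD. Its durations did not overlap in either genotype, narrowly so in WT. Of the 10 genes, 2 (Nfkb1 and Rela) had ranges that did not overlap in WT, both lower on LT-HFD, against 13.8% of genes lower without overlap. In IRF5-KO the 6 called genes were also the 6 whose ranges did not overlap, against 15.2% of genes lower without overlap. The fold change of Rela was called in IRF5-KO (log2 -0.56, SE 0.13, adjusted p = 0.00291 in edgeR) and not in WT (log2 -0.26, SE 0.13, adjusted p = 0.145).

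Nfkb2, the p100/p52 precursor of the slower, non-canonical branch (chromosome 19, 46304320 to 46312385), stood at 99.7, 124, 132 and 95.5 CPM in IRF5-KO ST-HFD and at 93.7, 72.4, 82.9 and 72.3 CPM in IRF5-KO LT-HFD, without overlap (log2 -0.49, SE 0.14, adjusted p = 0.0112 in edgeR). In WT the ranges overlapped, 83.1 to 119 CPM against 78.0 to 99.2 CPM (log2 -0.12, adjusted p = 0.572). Nfkb2 overlaps Psd on the opposite strand, and no source used here states whether strand was used in the counting. Relb, the partner of p52 (chromosome 7, 19606217 to 19629438), stood at 47.5, 40.9, 43.9 and 33.7 CPM in IRF5-KO ST-HFD and at 26.3, 24.1, 25.0 and 29.6 CPM in IRF5-KO LT-HFD. That was a log2 fold change of -0.66 (SE 0.17, adjusted p = 0.00525 in edgeR), against -0.25 (adjusted p = 0.307) in WT. Rel was not called in either genotype. Its log2 fold change was 0.11 in WT (95% interval -0.53 to 0.75) and -0.36 in IRF5-KO (-1.01 to 0.28), and without the 2 libraries it was -0.12 and -0.57 (adjusted p = 0.758 and 0.0601).

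Of the feedback genes, Zfp36 and Bcl3 fell in IRF5-KO. Zfp36 stood at 1351, 1692, 595 and 1353 CPM in WT ST-HFD and at 1067, 1136, 972 and 934 CPM in WT LT-HFD. In IRF5-KO it stood at 1225, 1889, 1665 and 905 CPM on ST-HFD and at 887, 679, 637 and 734 CPM on LT-HFD. The IRF5-KO durations did not overlap, and the level on LT-HFD was 0.517 times that on ST-HFD (log2 -0.95, SE 0.25, adjusted p = 0.00802 in edgeR). WT had a difference in the same direction that was called only without the low libraries. With all of them the log2 fold change was -0.28 (adjusted p = 0.457), and without the 2 libraries it was -0.51 (adjusted p = 0.0305). Bcl3, on chromosome 7 (19808462 to 19822770), had few counts, 58 to 212 per library. It stood at 26.1, 39.4, 49.0 and 25.4 CPM in IRF5-KO ST-HFD and at 21.8, 15.7, 18.8 and 19.1 CPM in IRF5-KO LT-HFD (log2 -0.89, SE 0.26, adjusted p = 0.0159 in edgeR). Without IRF5-KO ST-HFD replicate 3 its call was lost (log2 -0.68, adjusted p = 0.0699). Bcl3 overlaps Gm16174 and Gm16175 on the opposite strand.

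Tnfaip3, Nfkbiz and Nfkbia were called in neither genotype with all libraries. Tnfaip3 on LT-HFD stood at 948, 939.9, 940.7 and 601 CPM in WT and at 1082, 572, 712 and 512 CPM in IRF5-KO, and Nfkbiz at 577, 712, 506 and 532 CPM in WT and at 569.8, 256, 422 and 429 CPM in IRF5-KO. Their log2 fold changes were 0.14 and 0.14 in WT and -0.46 and -0.62 in IRF5-KO. Leaving out the 2 libraries turned the WT values to -0.20 and -0.13, and brought the IRF5-KO values to -0.72 (adjusted p = 0.0194) and -0.83 (adjusted p = 0.00826 in edgeR). In that fit 8 of the 10 genes were called in IRF5-KO, all lower, with 28.6% of genes called, and 2 in WT (Nfkb1 and Zfp36), with 20.4% called. Averaged over genotypes the same 8 were called, with 39.9% of genes. Both left-out libraries were ST-HFD and were chosen for low values in these genes. Leaving them out raises the ST-HFD means of such genes, so added lower calls are in part built in. IRF5-KO LT-HFD replicate 2 was kept, with 2128 CPM summed over Nfkbia, Nfkbiz, Tnfaip3 and Zfp36, against 2048 CPM in IRF5-KO ST-HFD replicate 4. Nfkbia was not called with or without the 2 libraries. It stood at 831, 996, 788 and 761 CPM in WT LT-HFD and at 819, 622, 714 and 615 CPM in IRF5-KO LT-HFD. Without the 2 libraries its log2 fold change was 0.07 in WT (95% interval -0.19 to 0.33) and -0.25 in IRF5-KO (-0.51 to 0.01).

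**Figure D4:**
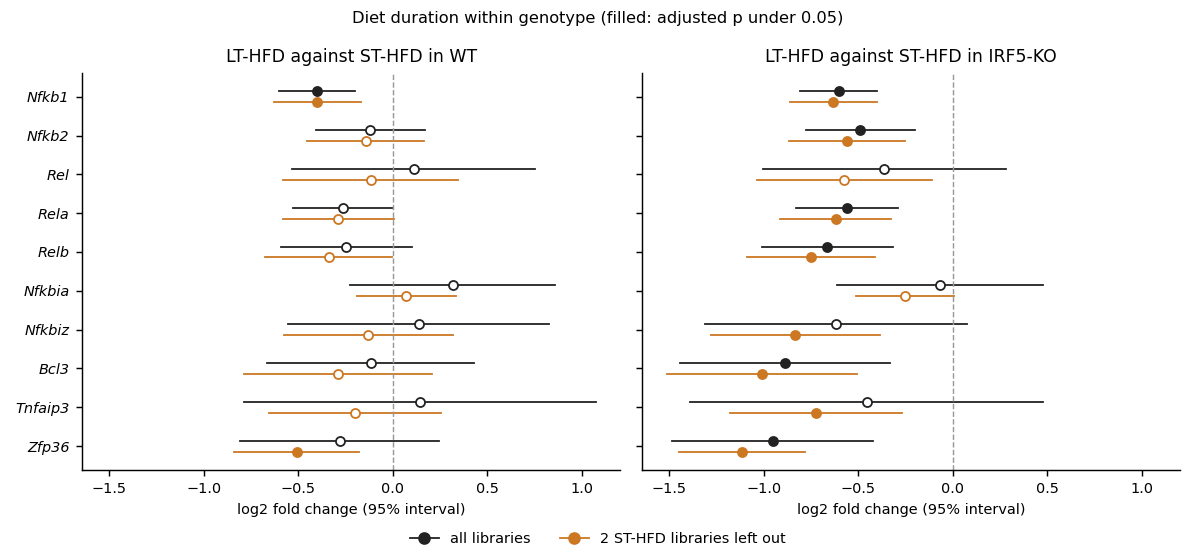
Log2 fold change of LT-HFD against ST-HFD with its 95% interval for the 10 genes, in WT and IRF5-KO, with all libraries (black) and without WT ST-HFD replicate 3 and IRF5-KO ST-HFD replicate 4 (orange). Filled points have an adjusted p under 0.05: 1 of 10 in WT and 6 of 10 in IRF5-KO with all libraries, and 2 and 8 without the 2.

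Other measures moved with diet duration. The 8 fibroblast and preadipocyte markers were all higher on LT-HFD in both genotypes and summed to at most 1640 CPM in each ST-HFD library and to between 3166 and 9246 CPM in each LT-HFD library. In each genotype 9 of 11 macrophage markers were lower on LT-HFD, and their sum ranged from 11020 to 13160 CPM in WT ST-HFD and from 9109 to 11310 CPM in WT LT-HFD, and in IRF5-KO from 10040 to 12500 CPM and from 7638 to 8886 CPM. The 3 features with the most counts, which include both mitochondrial ribosomal RNAs, took at most 24.1% of counts in an ST-HFD library and at least 26.1% in an LT-HFD library. Their part in the lower values of the 10 genes was not tested. The fibroblast sum, the share of the top 3 features and the total counts separated all libraries by duration, so they cannot be told apart from it. The macrophage sums overlapped between durations in WT and did not overlap in IRF5-KO. In sorted bulk RNA, fewer cells of a type and less RNA per cell also cannot be told apart.

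The other genes of the pathway were mostly lower where they were called. Of 53 (IkappaB proteins and kinases, receptor adaptors, further feedback genes), 2 were higher and 9 lower on LT-HFD in WT, so that 20.8% were called and 17% called lower, against 25.3% and 13.2% of all genes. In IRF5-KO 1 was higher and 16 lower, 32.1% called and 30.2% called lower, against 32.8% and 17.2% of all genes. Leaving out the 2 libraries gave 1 higher and 9 lower in WT, and 1 higher and 19 lower in IRF5-KO. That was 18.9% called and 17% lower in WT, against 20.4% and 10.8% of all genes, and 37.7% called and 35.8% lower in IRF5-KO, against 28.6% and 15.8%. With all libraries the medians were -0.13 and -0.21 on the log2 scale against 0.02 and 0.04 over all genes tested. Map3k14, the kinase NIK that drives processing of the Nfkb2 protein, fell most among the kinases, from 41.1 ± 7.15 to 16.3 ± 3.88 CPM in WT and from 43.7 ± 9.14 to 12.1 ± 2.32 CPM in IRF5-KO (SD, n = 4), log2 fold changes of -1.33 and -1.86 (adjusted p = 0.000103 and 3.38e-06 in edgeR). Ikbkb, the catalytic IkappaB kinase, fell in WT (log2 -0.57, adjusted p = 0.00367) and in IRF5-KO (log2 -0.67, adjusted p = 0.000883), and Tab2, an adaptor of the upstream kinase TAK1, fell likewise (log2 -0.36 and -0.38). TAK1 itself, encoded by Map3k7, fell in IRF5-KO (log2 -0.40), where Ikbkg, the regulatory subunit NEMO, rose (log2 0.41, adjusted p = 0.0229).

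Among 21 receptor adaptors, 3 were lower in WT (14.3%, against 13.2% of all genes) and 7 in IRF5-KO (33.3%, against 17.2%), and 0 were higher. The fit without the 2 libraries called 2 lower in WT (9.52%, against 10.8% of all genes) and 7 lower in IRF5-KO (33.3%, against 15.8%). Traf3, which holds NIK in check, fell in WT (log2 -0.62, adjusted p = 0.0419, and 0.0687 without the 2 libraries) and in IRF5-KO (log2 -1.02, adjusted p = 0.00147 in edgeR). Irak1, a kinase below the Toll-like receptors, fell in both (log2 -0.30 and -0.53), and Irak4, which activates it, fell in WT (log2 -0.73). Card9, an adaptor of C-type lectin receptors, and Rnf31, a ligase for linear ubiquitin chains, fell in IRF5-KO (log2 -0.99 and -0.62). Averaged over genotypes, Birc2, another ubiquitin ligase, rose (log2 0.53, adjusted p = 0.00867). Among 15 further feedback genes, 3 were lower and 2 higher in WT, and 5 lower and 0 higher in IRF5-KO, 33.3% called in each, against 25.3% and 32.8% of all genes. Lower genes made up 20% of the list in WT and 33.3% in IRF5-KO, against 13.2% and 17.2% of all genes. Leaving out both low libraries gave 3 lower and 1 higher in WT and 6 lower and 0 higher in IRF5-KO. That was 26.7% called and 20% lower in WT, against 20.4% and 10.8% of all genes. In IRF5-KO it was 40% called, all lower, against 28.6% called and 15.8% lower. Zfp36l2, a relative of Zfp36 with the same kind of RNA-binding domain, fell in WT (log2 -0.80) and in IRF5-KO (log2 -1.07, adjusted p = 3.76e-05 and 1.26e-06 in edgeR), and Zfp36l1 fell in IRF5-KO (log2 -1.09). Tnip1, a partner of A20, fell in both (log2 -0.35 and -0.61), as did N4bp1 (log2 -0.62 and -0.68). Trib1, a pseudokinase, and Socs3, an inhibitor of cytokine signalling, rose in WT (log2 0.91 and 1.06, adjusted p = 0.000739 and 0.0426). The call of Socs3 was lost without the 2 libraries (log2 0.79, adjusted p = 0.094 in edgeR).

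Of the inflammatory genes known to be induced by NF-kappaB, 26 were tested. In WT 2 were higher, the chemokine Ccl4 (log2 1.03) and Ier3 (log2 0.90), and 0 were lower, so that 7.69% were called against 25.3% of all genes. The call of Ier3 was lost without the 2 libraries (log2 0.70, adjusted p = 0.101 in edgeR). In IRF5-KO the survival gene Bcl2l1 was higher (log2 0.58), and 3 were lower, the cytokine Il1b (log2 -1.96, adjusted p = 0.0147 in edgeR), Marcksl1 (log2 -1.59) and Icam1 (log2 -0.68), 15.4% called against 32.8% of all genes. In the fit without the 2 libraries 1 of 27 was higher and 9 were lower in IRF5-KO, 37% called and 33.3% called lower against 28.6% and 15.8% of all genes. Il1b had few counts, at 6.82 to 30.1 CPM on ST-HFD and 1.63 to 8.02 CPM on LT-HFD in IRF5-KO. Averaged over genotypes 3 were higher and 5 lower, among them Tnfaip2 (log2 0.61) and the chemokine Ccl3 (log2 -0.66), 30.8% called and 19.2% lower against 43.6% and 21.6% of all genes. In the averaged fit without the 2 libraries 0 were higher and 8 lower, 29.6% against 39.9% of all genes called and 20% called lower, the call of Tnfaip2 being lost (log2 0.50, adjusted p = 0.0508 in edgeR). Of the 20 immediate early genes, Btg2 was higher (log2 0.68) and Klf4 lower (log2 -1.30) in WT, and 5 were lower in IRF5-KO, among them Klf4 (log2 -1.83), Jund (log2 -1.01), Egr1 (log2 -1.25) and Fosb (log2 -1.20). That was 10% called in WT and 25% in IRF5-KO, against 25.3% and 32.8% of all genes, and 5% and 25% called lower, against 13.2% and 17.2%. In the fit without both low libraries 10 of 20 were lower in IRF5-KO, 50% against 15.8% of all genes called lower, and 1 was higher and 2 lower in WT. These 2 libraries were the lowest on ST-HFD for 18 of the 20 genes and 17 of 26 induced targets, against 4.64% of genes. Leaving them out thus favours lower calls in both lists, and the share of all genes is no even contrast there. Averaged over genotypes 1 of the 20 was higher and 5 lower, among them Klf2 (log2 -0.61), 30% called and 25% lower against 43.6% and 21.6% of all genes. The averaged fit without the 2 libraries gave 1 higher and 11 lower, 60% called and 55% lower against 39.9% and 20%. Of the 8 heat shock genes, Hsp90aa1 and Hsph1 fell in WT (log2 -0.42 and -0.66) and in IRF5-KO (log2 -0.52 and -0.58), where Hspa1a also fell (log2 -1.61) and Hspe1 rose (log2 0.43), 25% of the list called in WT and 50% in IRF5-KO, against 25.3% and 32.8% of all genes. The call of Hsph1 in IRF5-KO was lost without the 2 libraries (adjusted p = 0.0579 in edgeR), which left 1 higher and 2 lower there (37.5% called, against 28.6% of all genes) and 2 lower in WT. Hspa8 fell averaged over genotypes (log2 -0.20, adjusted p = 0.0412, and 0.0516 without the 2 libraries, in edgeR).

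The genotype comparisons ask what deletion of IRF5 changes at each duration. None of the 10 genes was called at either duration. On ST-HFD 0 of 10 had an adjusted p under 0.05 in edgeR, with 0.00913% of 10958 genes called, and 0 had an unadjusted p under 0.05, with 1.84% of genes. DESeq2 also called 0 of 10. All 10 log2 fold changes were above 0, from 0.03 (Rela) to 0.34 (Tnfaip3), where 49.3% of genes were below 0. Below 0 were 0 of 20 immediate early genes, 2 of 27 induced targets and 2 of 8 heat shock genes. The feedback genes were too variable for a narrow estimate, and for Tnfaip3 the 95% interval ran from -0.79 to 1.46. Without the 2 libraries it ran from -0.03 to 0.54 around 0.25, all 10 values stayed above 0, and 0 were called, with 0.00902% of genes. Leaving out WT ST-HFD replicate 3 alone turned Rel, Nfkbia, Tnfaip3 and Zfp36 below 0, to between -0.01 and -0.16. Nfkb1 and Rela were measured more tightly, with intervals of -0.13 to 0.25 and -0.23 to 0.29, but the subunit Rel was not (-0.50 to 0.92).

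On LT-HFD all 10 genes had lower means in IRF5-KO, with log2 fold changes from -0.14 (Nfkb1) to -0.49 (Zfp36), where 49.9% of 10987 genes were below 0. Also below 0 were 19 of 20 immediate early genes, 23 of 26 induced targets and 4 of 8 heat shock genes. The 10 genes share their libraries, so their equal signs are not separate observations. Again 0 of 10 had an adjusted p under 0.05, with 0.0182% of genes called, and DESeq2 also called 0. An unadjusted p under 0.05 was found for 3 of the 10, Zfp36, Nfkbiz and Bcl3, all lower, with 5.72% of genes at that threshold and 3.5% lower. Zfp36 was the only one of the 10 with no overlap, 637 to 887 CPM in IRF5-KO against 934 to 1136 CPM in WT, where 1.67% of genes were lower without overlap. It was 0.712 times the WT level (SE 0.13 on the log2 scale, unadjusted p = 0.0029, adjusted p = 0.853 in edgeR). Nfkbiz was at 0.717 and Bcl3 at 0.741 times the WT level (unadjusted p = 0.0379 and 0.0491, adjusted p = 0.853 for both in edgeR). Nfkbia was lower by 0.29 on the log2 scale with a 95% interval of -0.58 to 0.00, and Rela by 0.26 with -0.54 to 0.02. The summed level of the 11 macrophage markers was also lower in every IRF5-KO LT-HFD library (7638 to 8886 CPM) than in every WT one (9109 to 11310 CPM), with 8 markers lower and 3 higher in the mean, Adgre1 among the higher, and its part in these values was not tested.

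**Figure D5:**
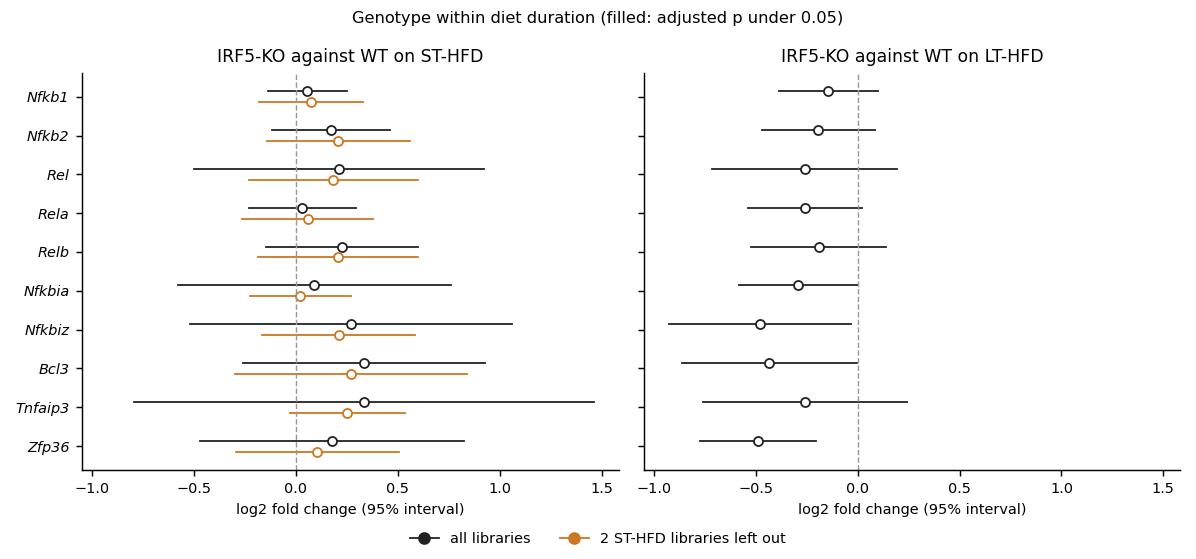
Log2 fold change of IRF5-KO against WT with its 95% interval for the 10 genes, on ST-HFD (black, all libraries, and orange, without the 2 low libraries) and on LT-HFD. All points are open (adjusted p of 0.05 or more), all lie above 0 on ST-HFD and all lie below 0 on LT-HFD.

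The difference between the durations in the effect of genotype was tested as an interaction. It was below 0 for all 10 genes, from -0.20 (Nfkb1) to -0.77 (Bcl3) on the log2 scale, where 51.2% of 11560 genes were below 0. The interaction was also below 0 for 20 of 20 immediate early genes, 24 of 26 induced targets and 4 of 8 heat shock genes. The 10 genes share their libraries, so their equal signs are not separate observations. None of the 10 was called, and 0 of 11560 genes were called in edgeR (0%), with 3.93% at an unadjusted p under 0.05. None of the 10 was under 0.05 before adjustment, and Bcl3 came nearest (95% interval -1.55 to 0.01, adjusted p = 0.969 in edgeR). Without the 2 libraries Zfp36 (-0.61), Nfkbiz (-0.70) and Bcl3 (-0.72) were under 0.05 before adjustment, with 3.2% of genes at that threshold and lower. Their adjusted p was 0.895 in edgeR, and 0% of genes were called. The larger number of genes called across durations in IRF5-KO than in WT was therefore not matched by a called difference between genotypes for any of the 10.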

How the data were processed

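RNA was sequenced from F4/80+ ATMs of 16 mice on ST-HFD or LT-HFD, with libraries made by a stranded total RNA kit that includes removal of ribosomal RNA. The authors aligned reads to mm10 with STAR 2.7.3a and deposited raw counts per gene, without normalisation. fastp 0.19.11 is named in the submitters' processing notes. The annotation release and strand setting of the counting are not given in the sources used here. Of 37310 gene identifiers, 32620 matched GENCODE M21 (GRCm38), which gave coordinates and exon lengths.

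The main fits used edgeR 4.0.16 in R 4.3.3 (filterByExpr, TMM, quasi-likelihood test, Benjamini-Hochberg over all genes tested). Genotypes were compared on the 8 libraries of each duration, and durations and the interaction on all 16. CPM used TMM factors, and log2 CPM a prior count of 2. Total counts limit precision for genes with few counts. P-values measure the spread between libraries of separate mice. Within groups no 2 libraries were alike within sampling noise. The fits were tried on simulated data with known changes, for each comparison but LT-HFD against ST-HFD in IRF5-KO. The simulation did not model libraries that stand apart like the 2 low ones. DESeq2 1.42.0, other scalings and filters, another set of samples, a replicate block and leaving out each library in turn were alternatives.

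Correlations of same-numbered WT and IRF5-KO libraries, as deviations from group means, were 0.381, 0.498, 0.162 and 0.299 on ST-HFD, which met the rule for pairing (every value over 0.1). On LT-HFD they were -0.10, -0.12, 0.05 and 0.25, which did not. Differently numbered ST-HFD libraries reached 0.476.

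Named genes were the 10 genes, those called in a list (at most 4 for each comparison and direction, ranked by p), the 5 most like the 10, Irf5 and Lyz2, and markers that moved with a group. The genes and lists were chosen with earlier results of these data known. Fibroblast, adipocyte, T cell, B cell, neutrophil, endothelial, dendritic, eosinophil and mast cell markers were also summed. Adipocyte, endothelial and dendritic markers summed to at most 57.6, 72.8 and 41.9 CPM, and B cell and eosinophil or mast cell markers to at most 9.43 and 15.2 CPM in any library.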

Additional observations from a re-analysis of the deposited data

Results flagged for a closer look

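Of 40 groups of 4 libraries (10 genes in 4 groups), 4 held a library whose gap to its nearest neighbour exceeded Dixon's 95% critical value. Chance flags about 1 in 20 groups, and the 10 genes share their libraries. Nfkbia was at 295.5 CPM in WT ST-HFD replicate 3, where the next library was at 783 CPM, and at 425.4 CPM in IRF5-KO ST-HFD replicate 4, where the next was at 802 CPM. Tnfaip3 was at 144.5 CPM in WT ST-HFD replicate 3, where the next was at 946 CPM. In WT LT-HFD replicate 4 Tnfaip3 was at 600.8 CPM, with the other 3 libraries between 939.9 and 948 CPM, and the fibroblast and preadipocyte markers of that library summed to 9246 CPM, the highest of the 16.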

How the results depend on the processing

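The count of the 10 genes called moved by over 1.5 times in 1 comparison, LT-HFD against ST-HFD in WT, which went from 1 to 2 with library totals alone (Rela at -0.35, adjusted p = 0.0405) and to 2 without both low libraries. Leaving out each library in turn gave 1 there, 5 to 6 in IRF5-KO and 5 to 6 averaged over genotypes. Averaged over genotypes, Bcl3 lost its call in 9 of the 16 fits that left out 1 library (adjusted p up to 0.0895) and, like Nfkb2, with upper-quartile factors (-0.40 and -0.21, adjusted p = 0.078 and 0.077), which raised the median of all genes by 0.08 in WT, 0.11 in IRF5-KO and 0.09 on average.

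All genes called between genotypes on ST-HFD went from 1 to 2 with DESeq2, with no filter and with 16 libraries in the fit. On LT-HFD they went from 2 to 7 with DESeq2, 6 with no filter and 1 with library totals, and to 0 to 2 without each library in turn. With the replicate block they were 2 on ST-HFD and 0 on LT-HFD, and the block changed no call of the 10 genes.

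Values that changed sign were never called. Nfkbia in IRF5-KO between durations was 0.0445 with upper-quartile factors. Without both low libraries, Rel, Nfkbiz and Tnfaip3 in WT were -0.12, -0.13 and -0.20, and Nfkbia averaged over genotypes was -0.091. Leaving out each library in turn gave, between genotypes on ST-HFD, -0.0212 to 0.43 for Rel, -0.0327 to 0.11 for Rela, -0.16 to 0.27 for Nfkbia, -0.0108 to 0.60 for Tnfaip3 and -0.054 to 0.35 for Zfp36, and between durations in WT -0.12 to 0.34 for Rel, -0.13 to 0.30 for Nfkbiz, -0.30 to 0.12 for Bcl3 and -0.20 to 0.31 for Tnfaip3. For Nfkbia it gave -0.25 to 0.0222 in IRF5-KO and -0.0014 to 0.18 averaged over genotypes. The alternative set of samples gives no value for the average or the interaction. The causes were not tested. Between 3279332 and 4958131 counts per library, Bcl3 had the fewest counts of the 10 genes, while Tnfaip3 had the widest intervals.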
